A study of Mus musculus with 6 samples.

Results

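The genes described here are the 2 corticosteroid receptors of the cortex, 5 genes that glucocorticoids are known to induce, and 3 metallothioneins. They were chosen by name, as the rows of the deposited expression table whose symbol is Nr3c1, Nr3c2, Fkbp5, Sgk1, Tsc22d3, Pdk4, Zbtb16, Mt1, Mt2 or Mt3. All 10 were found among 13582 listed genes, and all 10 passed the filter on low values. The 6 animals were C57BL/6 mice, killed when 10 weeks old, and the tissue was right cortex taken 2 weeks after a dose into the peritoneum. That dose was resveratrol, a plant polyphenol, at 10 mg/kg in 3 mice and vehicle in the other 3; the labels name no further treatment, allele or agent in either group, and the dose field of the vehicle mice carries the same 10 mg/kg. The comparison asks which cortical transcripts differ in the late window of tolerance to ischemia that resveratrol preconditioning gives, and nothing in the labels says that these mice underwent ischemia. Values are FPKM, sequenced fragments scaled by transcript length and library size. The scaling is meant to make levels comparable between genes and between animals, but trends with transcript length and GC content remained, as described below.

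Glucocorticoids enter brain cells and bind the mineralocorticoid receptor, which has the higher affinity, and the glucocorticoid receptor, which fills when hormone levels rise with stress or the daily peak. Bound receptor moves to the nucleus and raises transcription at glucocorticoid response elements (GRE), paired half-sites of DNA near its target genes. Metallothioneins are small cysteine-rich proteins that hold zinc and copper. Mt1 and Mt2 are made mainly by astrocytes and are induced by metals through metal response elements (MRE) and by glucocorticoids, whereas Mt3 is the brain-enriched member and responds little to either.

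The promoters of the metallothioneins and 1 promoter of Sgk1 are shown because they hold most of the matches found. Windows of 300 bases, from 250 before to 50 after a RefSeq transcript start, were searched on both strands for the full GRE (AGAACA, any 3 bases, TGTTCT), for a relaxed GRE (GNACA, any 3 bases, TGTNC) that every full one contains, and for the MRE core TGCACNC or TGCGCNC. Windows were at hand for 8 of the 10 genes, 15 in all; Nr3c1 and Zbtb16 were not searched. The sequences are from RefSeq on GRCm38.p6, written 5′ to 3′ on the strand of the gene, and all lie on the plus strand. Capitals mark MRE cores in the metallothioneins and the full GRE in Sgk1.
Mt1, chr8:94178839-94179138: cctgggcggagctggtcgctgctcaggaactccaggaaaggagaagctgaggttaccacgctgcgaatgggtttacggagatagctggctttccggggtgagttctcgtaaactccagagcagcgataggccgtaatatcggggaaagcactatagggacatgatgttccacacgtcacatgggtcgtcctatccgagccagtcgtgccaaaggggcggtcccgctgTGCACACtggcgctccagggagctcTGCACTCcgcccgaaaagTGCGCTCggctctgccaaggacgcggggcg
Mt2, chr8:94172368-94172667: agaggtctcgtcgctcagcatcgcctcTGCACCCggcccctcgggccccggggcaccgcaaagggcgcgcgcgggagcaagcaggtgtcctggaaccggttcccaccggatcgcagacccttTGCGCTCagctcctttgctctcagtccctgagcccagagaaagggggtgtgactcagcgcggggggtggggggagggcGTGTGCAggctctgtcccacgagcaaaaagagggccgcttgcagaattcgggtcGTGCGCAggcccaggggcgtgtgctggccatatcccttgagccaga
Mt3, chr8:94152357-94152656: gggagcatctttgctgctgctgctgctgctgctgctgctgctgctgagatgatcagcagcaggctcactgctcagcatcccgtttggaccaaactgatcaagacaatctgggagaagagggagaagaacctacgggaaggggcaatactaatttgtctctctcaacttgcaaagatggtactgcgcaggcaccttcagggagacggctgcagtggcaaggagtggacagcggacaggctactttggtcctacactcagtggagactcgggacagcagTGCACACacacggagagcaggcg
Sgk1, chr10:21993640-21993939: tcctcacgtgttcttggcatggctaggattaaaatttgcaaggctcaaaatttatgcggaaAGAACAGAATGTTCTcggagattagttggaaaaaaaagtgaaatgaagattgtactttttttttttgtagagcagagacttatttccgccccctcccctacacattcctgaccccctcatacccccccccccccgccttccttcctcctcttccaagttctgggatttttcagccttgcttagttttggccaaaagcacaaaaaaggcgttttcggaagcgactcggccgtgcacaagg

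The Mt2 window held 4 MRE cores, that of Mt1 held 3 and that of Mt3 held 1. Outside the metallothioneins, the Nr3c2 window held 1 core (at position -29) and another Sgk1 window held 1 (at position 12). Of 32817 promoter windows outside chromosome 18, 25.7% held at least 1 core and 0.518% held 4 or more. The full GRE was found in 1 of 6 Sgk1 windows, beginning at position -189 from that transcript start, and in 3 of all 32817 windows (0.00914%). The relaxed GRE was found in that Sgk1 window and once in Mt1, at position -94, and in 0.475% of all windows. Neither form of the GRE was in the windows of Fkbp5, Tsc22d3, Pdk4 or Nr3c2. The 3 metallothionein genes are neighbours on chromosome 8 of GRCm38, in the order Mt3 (94152607 to 94154146), Mt2 (94172664 to 94173568) and Mt1 (94179082 to 94180327), all on the plus strand within 27721 bp, so Mt2 and Mt1 lie 5513 bp apart. These matches describe the sequence and do not show that a factor binds there.

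The libraries also differed within the groups. Along the leading principal component (43.2% of variance) vehicle 1 and vehicle 2 stood apart from the other 4 libraries. Deviations from each gene's mean followed transcript length across 13047 genes, with a Spearman's rho that was 0.316 for vehicle 1, 0.502 for vehicle 2, -0.525 for vehicle 3 and -0.325 for resveratrol 3. Vehicle 3 thus had more of short transcripts and vehicle 2 more of long ones, and the longest basic transcripts of Mt2 (511 nt) and Mt3 (536 nt) are shorter than those of about 99% of the genes tested (only 0.858% and 1.04% are no longer). For resveratrol 1 and 2 the rho with length was -0.009 and -0.144. With GC content rho was -0.362, 0.035 and -0.015 for vehicle 1, 2 and 3. It was -0.465, 0.240 and 0.585 for resveratrol 1, 2 and 3. The fold changes of the 10 genes and most of the correlations named between them are therefore given also after a correction for length and GC content. The depth per library is unknown. Markers of cortical neurons were high in all libraries (8 of 8 listed, summed FPKM 2443 to 2672 in vehicle and 2368 to 2777 in resveratrol). Markers of regions below the cortex differed between libraries. Summed striatal markers (6 of 6 listed, 0 higher in resveratrol) ran from 168 to 433 FPKM in vehicle, highest in vehicle 1, and from 146 to 311 FPKM in resveratrol. Choroid plexus markers (6 of 7 listed, 6 higher in resveratrol) ran from 16.3 to 113 and from 48.4 to 455 FPKM, highest in resveratrol 3. Ependymal markers (5 of 5 listed, 0 higher in resveratrol, 0 called) summed to 12.2 to 13.3 FPKM in vehicle and 8.12 to 9.34 FPKM in resveratrol. The sums did not overlap, though the groups overlapped in Dynlrb2 and in Foxj1. The part of ependymal cells in the results was not tested. In bulk tissue, fewer cells of a type and less RNA per cell cannot be told apart.

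The set spanned a wide range of levels, and the metallothioneins led it. Averaged over the 6 animals, Mt1 stood at 232 FPKM, Mt3 at 153, Mt2 at 64.2, Tsc22d3 at 49.5, Nr3c1 at 46.2, Sgk1 at 29.9, Nr3c2 at 12.7, Zbtb16 at 8.54, Fkbp5 at 8.40 and Pdk4 at 2.57. Mt1 lay above 98.6% of tested genes and Pdk4 above 18.5%. Among neighbours in this order, Tsc22d3 exceeded Nr3c1 in 4 of 6 animals and Zbtb16 exceeded Fkbp5 in 3 of 6, so these 2 pairs did not differ beyond their spread. Each of the other 7 neighbouring pairs kept its order in 6 of 6 animals.

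**Figure D1:**
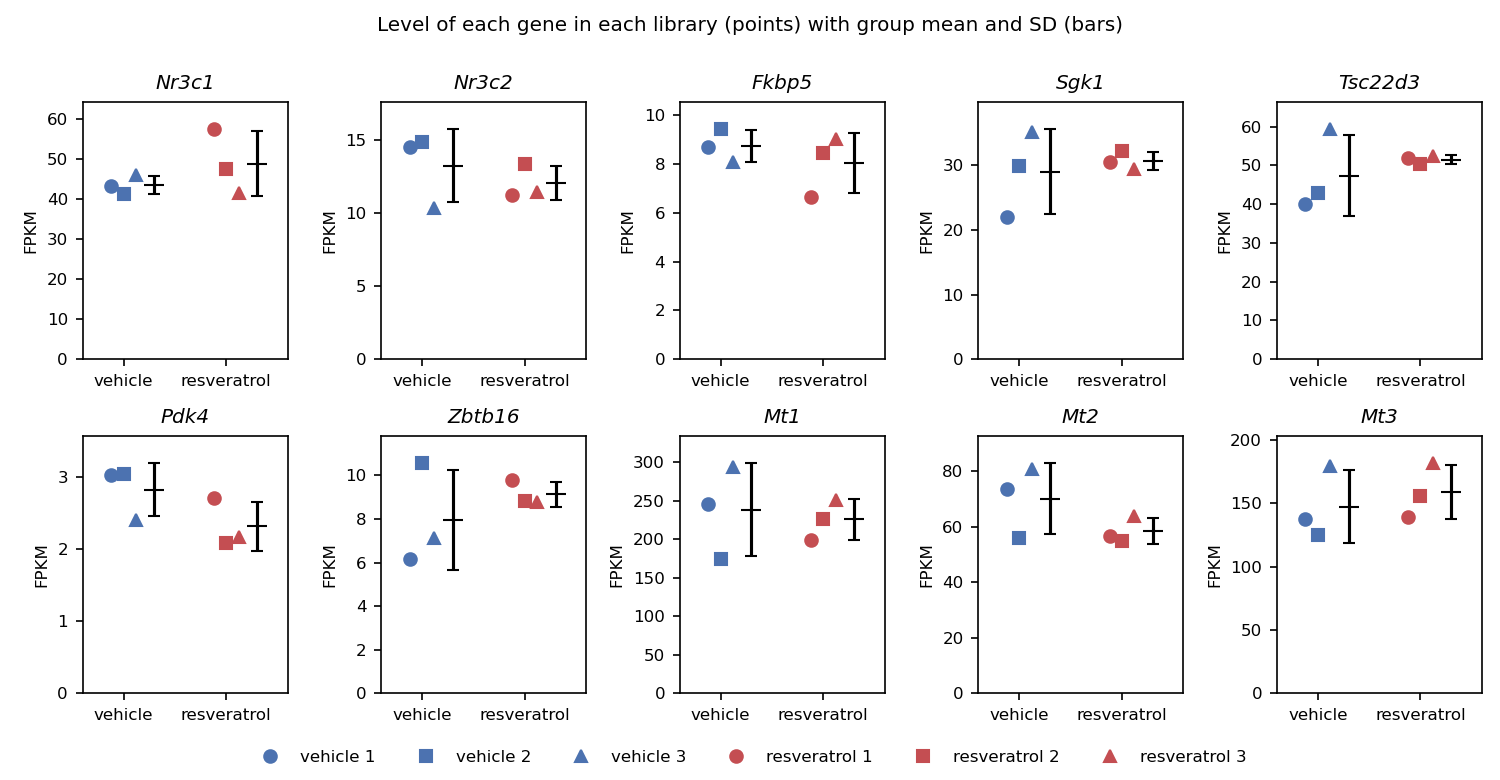
FPKM of the 10 genes (y axis, from 0) in the 3 vehicle and 3 resveratrol libraries (x axis), with 1 point per animal and the group mean ± SD as a bar beside the points. The groups overlap in every panel, and for Sgk1, Tsc22d3 and Zbtb16 the vehicle animals spread more widely than the resveratrol animals.

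None of the 10 genes differed between resveratrol and vehicle beyond the spread between animals. In limma on log2(FPKM + 0.5), 0 of 10 passed an adjusted p of 0.05, with adjusted p from 0.987 to 0.988, and 0 of 10 reached an unadjusted p of 0.05, the smallest being 0.118 for Mt2. Over all 13574 genes tested, 1 (0.00737%) passed, Eif3j1, a subunit of a translation initiation factor whose near-identical copy makes the row uncertain, and 2.42% had an unadjusted p under 0.05. The groups overlapped in all 10 genes, where 6.28% of all genes had groups that did not. In the authors' deposited table the q-values of the 10 genes were no lower than 0.971, that of Mt2, and 0.744% of listed genes had a q under 0.05 there. Of the 10 genes 5 had a higher and 5 a lower mean in resveratrol, and the median log2 fold change of the set was 0.03 beside 0.02 over all genes. Log2 fold changes ran from -0.25 to 0.22, and their 95% intervals reached -0.58 (Pdk4) and 0.62 (Zbtb16) at the widest, so changes of that size could not be told from none with 3 animals a group. Nothing says whether the animals shared a litter or a day, and the p-values measure the spread between these 6 samples.

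Neither receptor passed the test, and both overlapped between the groups. Nr3c1, which encodes the glucocorticoid receptor, measured 43.3, 41.3 and 46.0 FPKM in vehicle 1, 2 and 3 and 57.5, 47.7 and 41.6 FPKM in resveratrol 1, 2 and 3. Resveratrol 1 stood above the other 5 animals, and resveratrol 3 was within the vehicle range. The group means were 43.5 ± 2.33 and 48.9 ± 8.05 FPKM (SD, n = 3 each), a log2 fold change of 0.16 ± 0.13 (SE), which was 0.03 without resveratrol 1. After the correction for length and GC content it was 0.21 ± 0.09 at an unadjusted limma p of 0.0549 and an adjusted p of 0.897. Nr3c2, which encodes the mineralocorticoid receptor, measured 14.6, 14.9 and 10.4 FPKM in vehicle and 11.3, 13.4 and 11.5 FPKM in resveratrol. Vehicle 1 and 2 were the highest and vehicle 3 was the lowest of all 6 animals. Its log2 fold change was -0.12 ± 0.15 (SE), turning to 0.20 without both vehicle 1 and vehicle 2. After the correction it was -0.07 ± 0.11. The level of Nr3c2 was 33.6%, 36.0% and 22.6% of that of Nr3c1 in vehicle 1, 2 and 3 and 19.6%, 28.1% and 27.6% in resveratrol, so the receptor balance also overlapped between groups.

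Fkbp5 is a co-chaperone of the receptor complex that lowers hormone binding, and it is induced by the receptor it restrains. It measured 8.71, 9.43 and 8.10 FPKM in vehicle and 6.65, 8.47 and 9.03 FPKM in resveratrol. Only resveratrol 1 lay below the vehicle range. The log2 fold change was -0.12 ± 0.14 (SE, n = 3 each), without resveratrol 1 it was 0.00, and after the correction it was -0.13 ± 0.11.

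Sgk1, a kinase that raises the number of ion channels and transporters at the membrane, measured 22.1, 29.8 and 35.1 FPKM in vehicle and 30.5, 32.2 and 29.5 FPKM in resveratrol. Both the lowest and the highest animal were vehicle animals, and the resveratrol values lay between them. The log2 fold change was 0.10 ± 0.16 (SE) and turned to -0.08 without vehicle 1, the library in which striatal markers were highest; the part of striatal tissue in this was not tested. After the correction it was 0.09 ± 0.15. Tsc22d3, which encodes the anti-inflammatory leucine zipper protein GILZ, measured 40.1, 42.8 and 59.4 FPKM in vehicle and 51.8, 50.3 and 52.4 FPKM in resveratrol. Vehicle 1 and 2 were low and vehicle 3 high, with the resveratrol animals close together between them. Its log2 fold change was 0.14 ± 0.14 (SE), 0.31 without vehicle 3 (limma, adjusted p = 0.150), and 0.09 ± 0.11 after the correction, and without both vehicle 1 and vehicle 2 it turned to -0.20. Leaving out vehicle 3 moved the whole table, with 1289 genes higher and 1065 lower at an unadjusted limma p under 0.05. With all libraries these counts were 222 and 107, so the smaller adjusted p was not particular to Tsc22d3.

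Pdk4, a kinase that shuts off pyruvate dehydrogenase and so spares glucose, measured 3.02, 3.04 and 2.40 FPKM in vehicle and 2.70, 2.08 and 2.16 FPKM in resveratrol. Vehicle 1 and 2 were above all resveratrol animals, while vehicle 3 lay below resveratrol 1. The log2 fold change was -0.24 ± 0.15 (SE). It was -0.05 without both vehicle 1 and vehicle 2, and -0.24 ± 0.13 after the correction. Zbtb16, a zinc finger repressor also known as PLZF, measured 6.17, 10.5 and 7.14 FPKM in vehicle and 9.78, 8.82 and 8.78 FPKM in resveratrol. It varied more among the 6 animals than 83.9% of tested genes (SD 0.27 on the log2 scale against a median of 0.17), and vehicle 2 was the highest and vehicle 1 the lowest animal. Its log2 fold change was 0.22 ± 0.18 (SE), between 0.07 without vehicle 1 and 0.43 without vehicle 2, and 0.22 ± 0.15 after the correction. On the log2(FPKM + 0.5) scale, 7 of the 10 genes had a larger SD in vehicle than in resveratrol, beside 61.4% of all tested genes.

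None of the metallothioneins passed the test, and in the deposited FPKM Mt1 and Mt3 were lowest in the same animal. Mt1 measured 246, 174 and 294 FPKM in vehicle and 199, 227 and 251 FPKM in resveratrol, so that vehicle 2 was the lowest and vehicle 3 the highest of all animals. Mt2 measured 73.6, 55.9 and 80.6 FPKM in vehicle and 56.5, 55.0 and 63.8 FPKM in resveratrol. Here vehicle 1 and 3 lay above all resveratrol animals and vehicle 2 fell among them. Mt3 measured 138, 125 and 180 FPKM in vehicle and 139, 156 and 182 FPKM in resveratrol, with vehicle 2 again the lowest and with vehicle 3 and resveratrol 3 at the top. The log2 fold changes were -0.05 ± 0.19 for Mt1, -0.25 ± 0.14 for Mt2 and 0.12 ± 0.16 for Mt3 (SE, n = 3 each). The 3 genes together summed to 458, 355 and 554 FPKM in vehicle and 395, 438 and 497 FPKM in resveratrol. Mt2 stood at 29.9%, 32.0% and 27.4% of Mt1 in vehicle and at 28.4%, 24.2% and 25.4% in resveratrol. Mt3 stood at 56.0%, 71.7% and 61.1% of Mt1 in vehicle and at 70.0%, 68.7% and 72.2% in resveratrol.

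Mt1 deviated from its mean by -0.39 on the log2 scale in vehicle 2 and by 0.36 in vehicle 3, the libraries with the highest and the lowest rho with transcript length (0.502 and -0.525). Vehicle 1, with a rho of 0.316, did not follow that order, since Mt1 (0.11) and Mt2 (0.21) were above their means there. For Mt1 the correction used a transcript of 1085 nt, beside 511 nt for Mt2 and 536 nt for Mt3. Whether that form of Mt1 was the one measured here was not tested, and a shorter one would have been corrected differently. After the correction Mt1 was still lowest in vehicle 2 (-0.22) and highest in vehicle 3 (0.24), but resveratrol 1 (-0.19) and vehicle 1 (0.225) lay close to them. Mt3 was then lowest in resveratrol 3 (-0.048), with vehicle 2 at -0.034. After the correction for length and GC content, Mt2 deviated from its mean by 0.35, 0.09 and 0.16 on the log2 scale in vehicle and by -0.16, -0.24 and -0.20 in resveratrol, so its groups no longer overlapped. Its log2 fold change was then -0.40 ± 0.08 (SE) at an unadjusted limma p of 0.00101, and its adjusted p was 0.897, which did not pass. Only 0.858% of genes are no longer than Mt2, so the subtracted curve rests on few genes at that end. The SE and p treat that curve as known. Mt2 was the 1 gene of the 10 whose groups separated after the correction, where 8.98% of 13047 genes did, and the 1 with an unadjusted p under 0.05, where 3.91% of genes had one. The corrected log2 fold change of Mt1 was -0.16 ± 0.13 (SE), and that of Mt3 turned to -0.07 ± 0.07. Of the 50-base words of Mt2 transcripts, 45.8% also occur in Gm45774, an annotated gene on the other strand of the same locus; whether strand was used in counting is not given in the sources used here, so the value of Mt2 is uncertain. All 8 astrocyte markers were listed, and they did not move as 1. Their summed FPKM was 1035, 1103 and 819 in vehicle and 884, 864 and 876 in resveratrol, highest in vehicle 2, and Slc1a2 made up 584 FPKM of that highest sum. Aldoc, in contrast, measured 217, 209 and 266 FPKM in vehicle and 239, 242 and 281 FPKM in resveratrol. That is the order of animals seen for Mt3 before the correction. The part of astrocytes in the metallothionein levels was not tested.

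**Figure D2:**
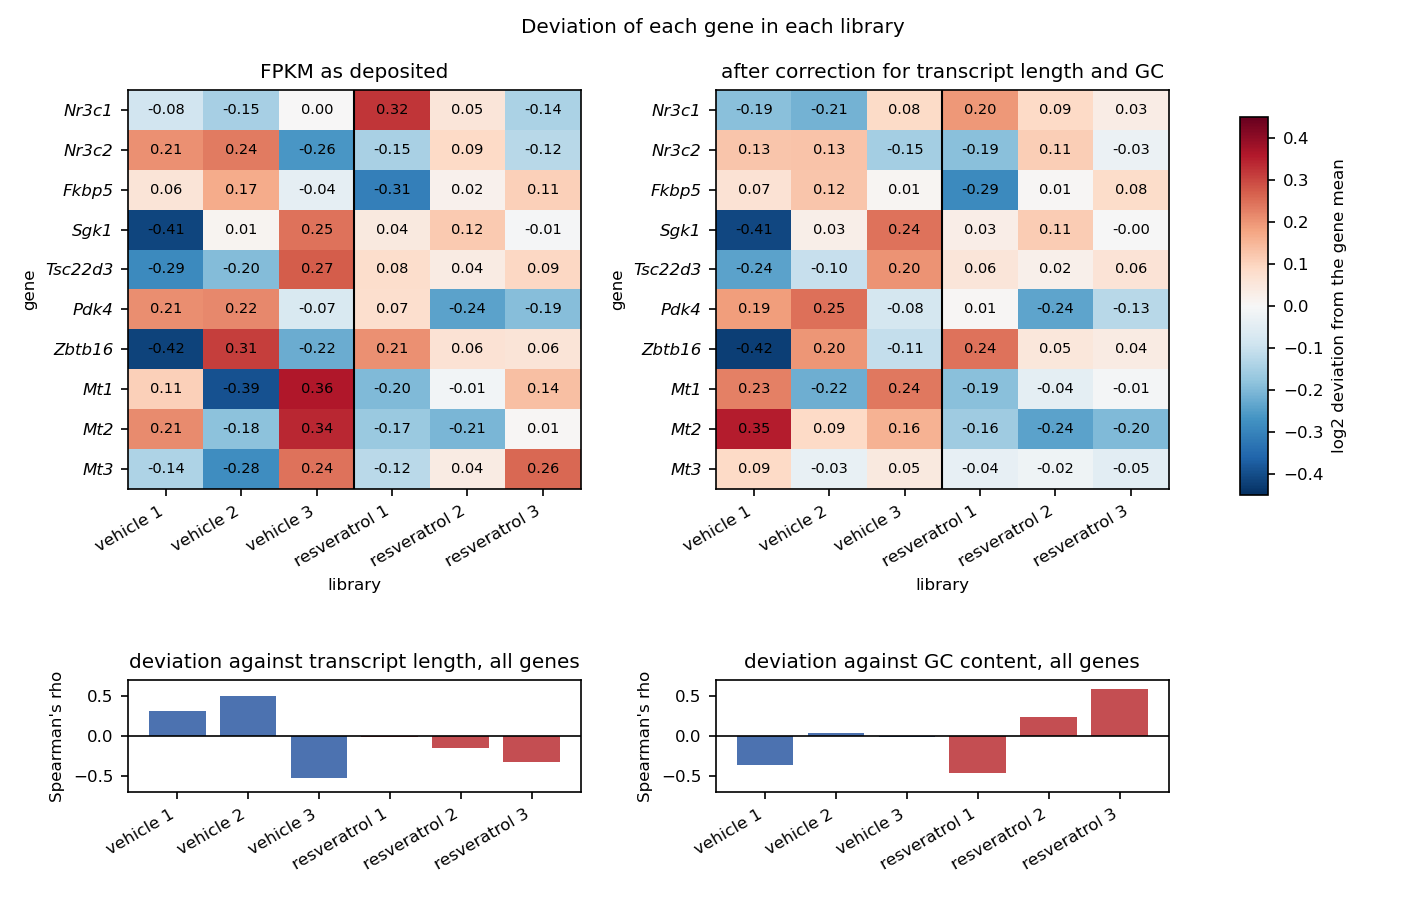
Upper panels give the log2 deviation of each of the 10 genes (rows) from its own mean in each of the 6 libraries (columns), on the left from the deposited FPKM and on the right after the correction for transcript length and GC content. Lower panels give Spearman's rho, across 13047 genes, between a library's deviations and transcript length or GC content. Mt1 in vehicle 2 moves from -0.39 to -0.22 with the correction, while Sgk1 in vehicle 1 stays at -0.41.

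**Figure D3:**
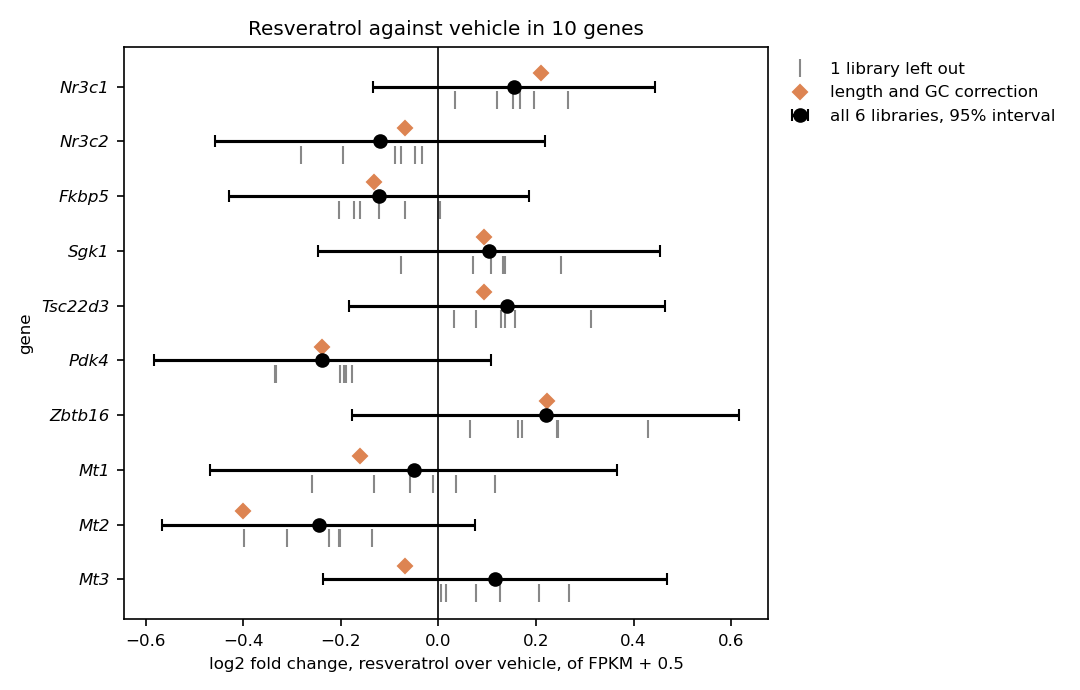
Log2 fold change of resveratrol over vehicle (x axis) of the 10 genes (y axis) on the log2(FPKM + 0.5) scale. Black points with bars are the estimates from 6 libraries with 95% intervals, grey ticks the estimates with 1 library left out, and orange diamonds those after the length and GC correction. Every black interval crosses 0, and the diamond of Mt2 lies at -0.40.

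Among the 5 known targets of the receptor, 4 of the 10 pairs had a positive r across animals, from -0.70 for Tsc22d3 with Pdk4 to 0.83 for Sgk1 with Tsc22d3, with a median of -0.07. All 45 pairs among the 10 genes were correlated over the 6 animals on the log2(FPKM + 0.5) scale, 22 with a positive r and a median r of -0.06, and 0 pairs passed an adjusted p of 0.05 in the exact permutation test over 720 pairings (smallest adjusted p = 0.125, two-sided; the smallest raw p this allows is 0.00278, so that no pair alone could pass and at least 3 would be needed). In 5 of the 45 pairs the raw p was under 0.05. The glucocorticoid receptor and its co-chaperone were 1 of the pairs that shared the smallest p. Nr3c1 and Fkbp5 ran opposite to each other, with Pearson's r = -0.97 (exact permutation p = 0.00556, adjusted p = 0.125) and Spearman's rho = -0.94 (exact permutation p = 0.0167, adjusted p = 0.514). Without the 2 animals farthest from the median of Nr3c1, vehicle 2 and resveratrol 1, r was -0.79, and after the length and GC correction it was -0.75. After that correction Nr3c1 had r = 0.79 with Tsc22d3, -0.78 with Nr3c2 and -0.77 with Pdk4 (0.37, -0.43 and -0.07 before it). Fkbp5 was thus not the gene most strongly correlated with Nr3c1 on the corrected scale. The animal with the most Nr3c1, resveratrol 1, had the least Fkbp5, and that with the least Nr3c1, vehicle 2, had the most.

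The mineralocorticoid receptor ran opposite to Tsc22d3. For Nr3c2 and Tsc22d3, r was -0.93 (exact permutation p = 0.00556, adjusted p = 0.125) and rho was -0.89 (exact permutation p = 0.0333, adjusted p = 0.514). It was -0.85 without vehicle 2 and vehicle 3, and -0.76 after the correction. Sgk1 and Tsc22d3, both targets of the receptor, varied together with r = 0.83 (exact permutation p = 0.0319, adjusted p = 0.359) and rho = 0.60 (exact permutation p = 0.242, adjusted p = 0.680). This relation rested on vehicle 1 and vehicle 3, without which r was 0.18, and after the length and GC correction r was 0.89. Fkbp5 had r = 0.56 with Nr3c2 (exact permutation p = 0.251, adjusted p = 0.742; rho = 0.77, exact permutation p = 0.103, adjusted p = 0.514), which was 0.48 without vehicle 2 and vehicle 3 and 0.71 after the correction. It had r = -0.23 with Sgk1 (exact permutation p = 0.578, adjusted p = 0.929; rho = -0.60, exact permutation p = 0.242, adjusted p = 0.680) and r = -0.43 with Tsc22d3 (exact permutation p = 0.422, adjusted p = 0.842; rho = -0.43, exact permutation p = 0.419, adjusted p = 0.786).

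Among the metallothioneins, Mt1 and Mt2 had r = 0.83 (exact permutation p = 0.050, adjusted p = 0.375) and rho = 0.77 (exact permutation p = 0.103, adjusted p = 0.514). Mt1 and Mt3 had r = 0.83 (exact permutation p = 0.0472, adjusted p = 0.375) and rho = 0.77 (exact permutation p = 0.103, adjusted p = 0.514). Without vehicle 2 and vehicle 3 these r were 0.69 and 0.52, and after the length and GC correction they were 0.60 and 0.85. Zbtb16 ran opposite to Mt2, with r = -0.86 (exact permutation p = 0.0319, adjusted p = 0.359), rho = -0.77 (exact permutation p = 0.103, adjusted p = 0.514) and r = -0.46 without vehicle 1 and vehicle 3, and -0.72 after the correction. Zbtb16 and Mt1 had r = -0.77 (exact permutation p = 0.0708, adjusted p = 0.424) and rho = -0.83 (exact permutation p = 0.0583, adjusted p = 0.514). Without the same libraries that r was -0.97, and after the correction -0.90. Zbtb16 and Mt3 had r = -0.30 (exact permutation p = 0.532, adjusted p = 0.887), -0.93 without these libraries and -0.92 after the correction. The positive r of Tsc22d3 with Mt3 (r = 0.79, exact permutation p = 0.0806, adjusted p = 0.424; rho = 0.83, exact permutation p = 0.0583, adjusted p = 0.514) turned to -0.35 after the correction, and it was 0.57 without vehicle 1 and vehicle 2. With deviations taken from the mean of each animal's own group, r was -0.97 for Nr3c1 with Fkbp5, -0.92 for Nr3c2 with Tsc22d3, 0.95 for Mt1 with Mt2 and 0.90 for Mt1 with Mt3, so they were as large within the groups. Mt2 and Mt3 had r = 0.47 (exact permutation p = 0.329, adjusted p = 0.819), rho = 0.31 (exact permutation p = 0.564, adjusted p = 0.868), r = 0.76 without vehicle 1 and vehicle 3, 0.83 within the groups and 0.85 after the correction.

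**Figure D4:**
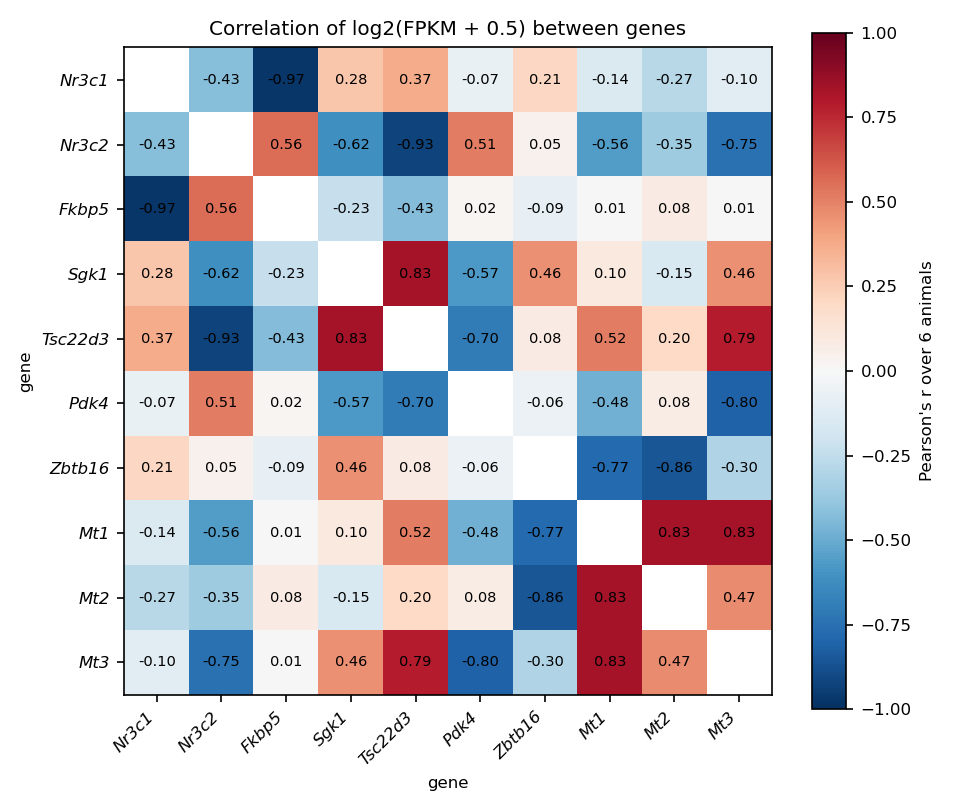
Pearson's r of log2(FPKM + 0.5) over 6 animals for all 45 pairs of the 10 genes, with genes on both axes and r as colour and number. The strongest values are -0.97 for Nr3c1 with Fkbp5 and -0.93 for Nr3c2 with Tsc22d3, and Mt1 has 0.83 with both other metallothioneins.

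**Figure D5:**
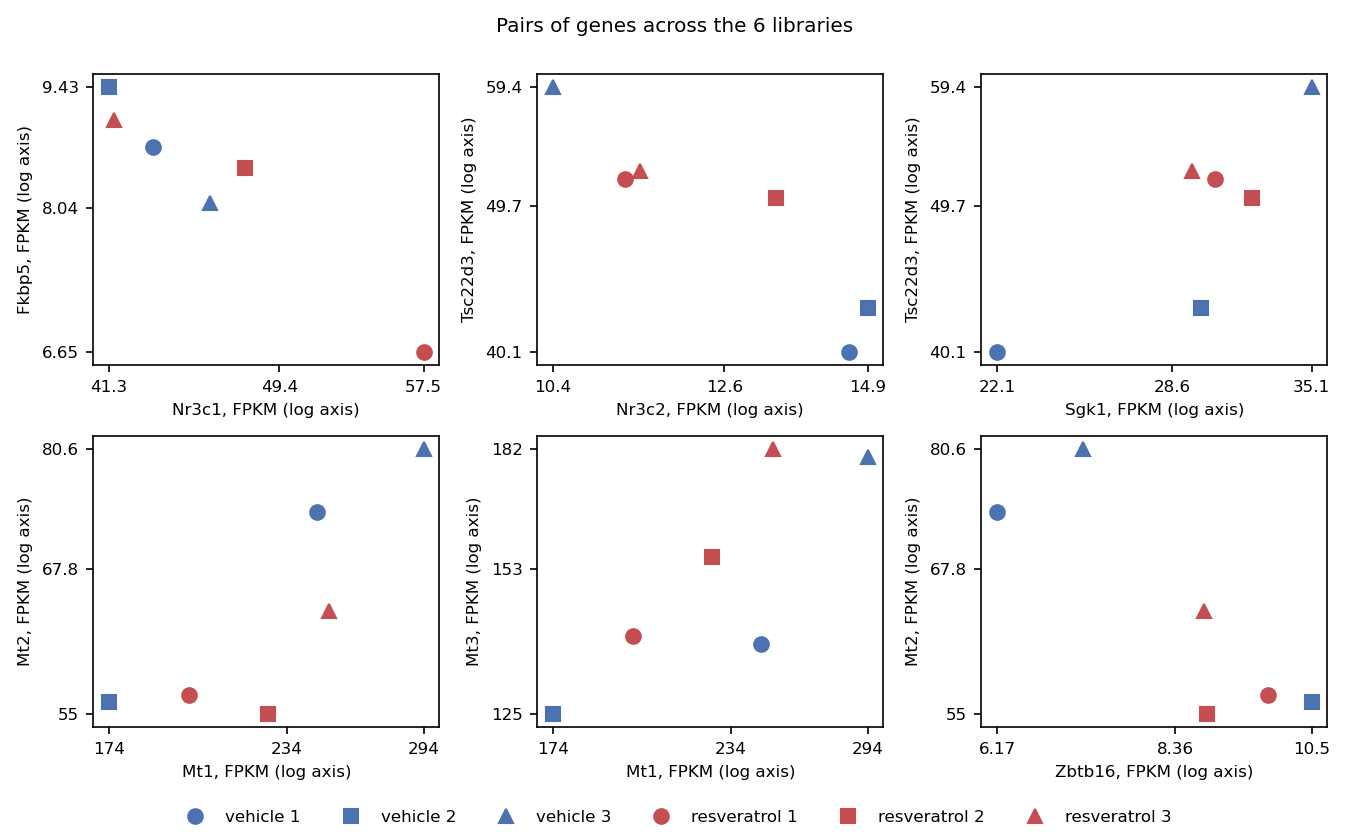
FPKM of 6 pairs of genes on log axes, with 1 point per animal (blue vehicle, red resveratrol, and the replicate number by symbol). In both groups the animal with the most Fkbp5 is the one with the least Nr3c1, while Sgk1 with Tsc22d3 is spread out by vehicle 1 at 22.1 and 40.1 FPKM and vehicle 3 at 35.1 and 59.4 FPKM.

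The genes whose pattern over the 6 libraries was most like that of the most variable members were sought among 4749 genes with an SD of at least 0.2. For Zbtb16 these were Ccdc57 (r = 0.996), the citrate transporter Slc13a5 (0.994), Haus5 (0.985), the antigen peptide transporter subunit Tap2 (0.968) and Traf5 (0.960), and 7 genes in all exceeded 0.95. For Mt1 they were Angptl4 (r = 0.995), Ndufa4l2 (0.985), Sat2 (0.981), Smc2os (0.981) and Cmtm5 (0.980), among 23 genes above 0.95. Angptl4, an inhibitor of lipoprotein lipase that glucocorticoids are known to induce, measured 0.822, 0.522 and 1.07 FPKM in vehicle and 0.615, 0.762 and 0.901 FPKM in resveratrol, in the same order of animals as Mt1. These values are a description over 6 libraries, picked as the highest of 4749, and were not corrected for length and GC content.

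Other genes that glucocorticoids are known to induce gave no call either. Of 26 genes in that list 23 were measured, 14 were higher and 9 lower in resveratrol, 0 passed the adjusted threshold, 0 had an unadjusted p under 0.05, and the median log2 fold change was 0.07 beside 0.02 over all genes. Dusp1, a phosphatase of MAP kinases that neuronal activity also induces, measured 4.57, 11.9 and 8.63 FPKM in vehicle and 16.6, 8.22 and 19.0 FPKM in resveratrol, with resveratrol 2 inside the vehicle range (log2 fold change 0.78 ± 0.35 SE). Mertk, a receptor for engulfing dying cells and synapses, averaged 14.4 ± 2.22 FPKM (vehicle) and 11.7 ± 0.537 FPKM (resveratrol; SD, n = 3 each), a log2 fold change of -0.28 ± 0.13 (SE). The transcription factor Klf15 differed by 0.31 ± 0.17 and the mTOR inhibitor Ddit4 by 0.22 ± 0.14 (log2 fold change ± SE). The groups did not overlap in 1 of the 23 genes, the sphingosine phosphate receptor S1pr3 (0.17 ± 0.14), a share near the 6.28% over all genes.

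In the machinery of the receptor, 19 of 20 genes were measured, with 11 higher and 8 lower, 0 past the adjusted threshold and a median log2 fold change of 0.04. Fkbp4, the co-chaperone that helps carry the receptor into the nucleus and competes with Fkbp5, measured 39.1, 36.3 and 45.2 FPKM in vehicle and 45.9, 46.4 and 51.8 FPKM in resveratrol. All 3 resveratrol animals lay above all 3 vehicle animals, the 1 gene of the 19 without overlap, with a log2 fold change of 0.26 ± 0.11 (SE), an unadjusted limma p of 0.0487 and an adjusted p of 0.987. Over all genes 6.28% had no overlap and 2.42% an unadjusted p under 0.05, and 1 of 19 is near these shares. The coactivators Crebbp (-0.39 ± 0.26) and Ep300 (-0.38 ± 0.27) were highest in vehicle 2 and lowest in vehicle 3. The stress peptide Crh differed by 0.21 ± 0.16.

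Among genes of zinc and metal handling, 27 of 29 were measured, 17 were higher and 10 lower, 0 passed and 0 had an unadjusted p under 0.05, with a median log2 fold change of 0.02. The zinc importers Slc39a7 (0.24 ± 0.12 SE), Slc39a1 (0.18 ± 0.11) and Slc39a13 (0.17 ± 0.13) and the exporter Slc30a4 (0.16 ± 0.16) had the smallest p. Groups did not overlap in 2 of the 27, which were Slc39a1, with means of 13.6 ± 0.672 (vehicle) and 15.4 ± 1.18 FPKM (resveratrol), and the ferritin heavy chain Fth1, with 946 ± 21.8 and 867 ± 40.4 FPKM (SD, n = 3 each). That share is near the 6.28% found over all genes. Plin4, Lcn2, Slc10a6, Hsd11b2, Slc39a4 and Atp7b of these lists were not analysed here.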

How the data were processed

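Cortical RNA of 6 mice, 3 per group, was sequenced, and the groups and replicate numbers follow the sample titles. Per the labels' protocols, a stranded total RNA kit with ribosomal depletion was used. The submitters' processing notes list STAR, Cufflinks, Cuffdiff and GRCm38, giving neither versions nor roles. The authors computed the FPKM values, per the file headers. The authors also deposited log2 group values and log2 fold changes with their p-value and q-value, as the file headers show. The table lists 13582 genes; 2 values carry a failure mark, and those 2 genes were dropped, and no value is 0. The deposited loci do not match GRCm38 and were not used; coordinates are from GENCODE M21, to which 13054 rows (96.1%) were matched by name.

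Depth was sought in the low FPKM of genes with 1 transcript. At the best of 4000 trial steps, 36.2% to 46.5% of 32 to 58 values per library lay within 0.1 of a whole number, so no whole reads could be recovered and no counting error is given.

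The test was two-sided limma 3.58.1 with an intensity trend (R 4.3.3), run on log2(FPKM + 0.5) of the 13574 genes averaging 0.5 FPKM or more, with Benjamini-Hochberg adjustment over them at 0.05. The pseudocount shrinks the fold changes of low genes. The limma fit was tested on simulated data with known changes, and the permutation test on random pairs without a relation. The length and GC correction was not tested on simulated data. For the correction, a loess curve (span 0.3) of each library's deviations on the length and then the GC content of the longest basic transcript was subtracted. Pairs of genes were correlated with exact permutation p-values, adjusted over 45 pairs. The members and lists were chosen with earlier results of these data known. Named were all 10 members, the 4 genes of each list with the smallest p, and the 5 genes most like the most variable target and metallothionein, gene models aside; Eif3j1, S1pr3 and Fth1 were added after their values were seen. Lists were described by counts without a set test. Alternatives changed the pseudocount (0.1 or 1), the filter (none or 2 FPKM), the scaling (quantile normalization, median centring or the correction), the variance prior (robust) and the adjusted threshold (0.1), added the replicate number as a block, or omitted single libraries or vehicle 1 with vehicle 2.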

Additional observations from a re-analysis of the deposited data

How the results depend on the processing

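In none of the alternatives run did a member or a list gene pass the adjusted threshold. The pairs of members say nothing about stability, since the permutation test could hardly pass at this size. Without single libraries between 1 and 7 genes of the whole table were called, 7 without vehicle 3 and 3 without vehicle 2, and with vehicle 1 and 2 left out 3 were called, against 1 with all libraries. With vehicle 1 and 2 left out, which leaves 1 vehicle animal assumed to vary like the others, the log2 fold changes turned to 0.20 for Nr3c2, -0.19 for Sgk1, -0.20 for Tsc22d3 and -0.19 for Mt3. The length and GC correction turned Mt3 to -0.068. With each library left out in turn, Fkbp5 ranged from -0.20 to 0.0024, Sgk1 from -0.077 to 0.25, Mt1 from -0.26 to 0.12, and the median of zinc and metal handling genes from -0.012 to 0.054. The causes were not tested. Nr3c1, Pdk4, Zbtb16 and Mt2 kept their sign in all 16 alternatives. The filters, the robust prior and the replicate block cannot change a fold change, so they say nothing about the sign. Of genes with an unadjusted p under 0.05, 222 were higher and 107 lower in resveratrol, against 144 and 138 with median centring and 225 and 285 after the length and GC correction. The largest counts came without vehicle 3, with 1289 higher and 1065 lower. With the replicate number as a block 448 were higher and 197 lower, and 1 gene was called and no member. Deviations of same-numbered animals correlated at 0.04, 0.15 and 0.18 across genes, and vehicle 1 correlated best with resveratrol 2 (0.26). With so few animals, these values cannot tell whether equal numbers mark a shared litter, batch or day. The number of animals limits precision, and what depth limits is unknown.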
